A study of Mus musculus with 28 samples.

Results

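Chemokine genes expressed by fibroblasts or induced by interferons were followed through the reprogramming of mouse embryonic fibroblasts (MEFs). The set was Ccl2, Ccl7, Ccl8, Ccl5, Cxcl10, Cxcl1, Cxcl5, Cxcl12, Cxcl14 and Cx3cl1, found by exact match of the gene name, and all 10 were present among 50600 genes in the table. All 10 also had a mean value of at least 1 over the libraries and were among the 13230 genes tested. Poly(A)-selected RNA was sequenced in 28 libraries, 2 for each of 14 groups. The cells were OG2 MEFs, which carry an Oct4-GFP reporter and were taken from embryos of OG2 males and 129 females, and the labels give their genotype as WT. For induction, retroviruses encoding Oct4, Klf4 and Sox2 (OKS) were introduced and the cells were kept in the chemically defined medium iCD1.

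The groups were untreated MEFs, MEFs treated with the p38 inhibitor (p38i MEFs), and OKS-induced cells on days 1, 3, 5 and 7 in each of 3 arms. The DMSO arm was induced without inhibitor. In the pre-p38i arm the MEFs received the inhibitor before induction, and in the p38i arm it was present during induction. The inhibitor was SB203580, which blocks the kinase activity of p38 alpha and beta. The labels describe the DMSO arm as OKS reprogramming alone, and the vehicle is named in the methods of the study. The DMSO libraries of each day served as the shared control of both inhibitor arms. How many embryos stood behind each library was not given in the sources used here, and nothing in the labels says that the paired libraries came from separate cultures, so the p-values measure the spread between these samples, which may be technical.

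Chemokines are small secreted proteins that guide leukocytes through G protein-coupled receptors. Inflammatory members such as Ccl2 and Cxcl1 are switched on in fibroblasts by interleukin and tumour necrosis factor signals through NF-kB, Cxcl10 is a classical target of interferons, and Cxcl12 is made constitutively by stromal fibroblasts. The kinase p38 acts in this system through transcription and, by way of Mapkapk2 and the RNA-binding protein Zfp36, through the decay of mRNAs with AU-rich elements, a class to which many inflammatory chemokine mRNAs belong.

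In the coordinates of the deposited table (mm10), the genes lie in clusters and alone. Ccl2 (chr11:82035571-82037453), Ccl7 (chr11:82045712-82047525) and Ccl8 (chr11:82115185-82116799) follow each other on the plus strand of chromosome 11, and Ccl5 (chr11:83525778-83530518) lies on the minus strand of the same chromosome. Cxcl5 (chr5:90759360-90761624) and Cxcl1 (chr5:90891241-90893115) lie on the plus strand of chromosome 5, and Cxcl10 (chr5:92346638-92348889) lies on its minus strand. Cxcl12 (chr6:117168535-117181367), Cxcl14 (chr13:56288647-56296551, minus strand) and Cx3cl1 (chr8:94772009-94782427) each lie on another chromosome. Ccl2 overlaps Gm17268 on the other strand, which was listed at 0 in every library, and Cxcl10 overlaps Art3, whose highest value was 3. Whether strand was used in counting was not given in the sources used here, so reads of overlapping genes cannot be told apart. No transcript of another gene matched a member at 95% identity over 200 nucleotides, and the closest was Cxcl2, with 78.1% identity to Cxcl1 over 347 nucleotides.

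Promoter sequences (RefSeq, GRCm38.p6; 250 bases before to 50 bases after the annotated start) were matched for 6 of the 10 genes: Cxcl1, Cxcl10, Cxcl12, Cx3cl1, Ccl8 and Cxcl14. They were searched on both strands for an interferon-stimulated response element (ISRE, GAAANNGAAA), an AP-1 site (TGANTCA), a GAS element (TTCNNNGAA) and the NF-kB consensus. Of 32851 promoters of this length, 3.44% held the ISRE letters, 7.81% the AP-1, 8.3% the GAS and 8.46% the NF-kB letters. The 4 promoters printed here belong to the genes that set the patterns apart: Cxcl10 and Cxcl1 as interferon and NF-kB targets, Ccl8 as a gene that went from 0 in MEFs to over 100 in DMSO on day 5 and Cxcl12 as a gene highest in MEFs. Capitals mark the matched letters. The stretches are chr5:92348840-92349139 on the minus strand (Cxcl10), chr5:90890995-90891294 (Cxcl1), chr11:82114935-82115234 (Ccl8) and chr6:117168285-117168584 (Cxcl12), the last 3 on the plus strand.
Cxcl10: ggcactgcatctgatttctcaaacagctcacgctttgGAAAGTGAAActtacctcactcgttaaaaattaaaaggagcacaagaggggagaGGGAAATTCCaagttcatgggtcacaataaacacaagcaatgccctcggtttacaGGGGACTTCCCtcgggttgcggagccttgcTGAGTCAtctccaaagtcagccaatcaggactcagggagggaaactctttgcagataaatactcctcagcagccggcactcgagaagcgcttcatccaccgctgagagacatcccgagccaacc
Cxcl1: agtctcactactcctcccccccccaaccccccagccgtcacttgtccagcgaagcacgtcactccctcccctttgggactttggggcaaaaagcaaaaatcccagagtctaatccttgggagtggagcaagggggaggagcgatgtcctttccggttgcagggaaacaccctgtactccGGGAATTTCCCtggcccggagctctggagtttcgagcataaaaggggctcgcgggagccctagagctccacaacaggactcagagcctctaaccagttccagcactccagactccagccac
Ccl8: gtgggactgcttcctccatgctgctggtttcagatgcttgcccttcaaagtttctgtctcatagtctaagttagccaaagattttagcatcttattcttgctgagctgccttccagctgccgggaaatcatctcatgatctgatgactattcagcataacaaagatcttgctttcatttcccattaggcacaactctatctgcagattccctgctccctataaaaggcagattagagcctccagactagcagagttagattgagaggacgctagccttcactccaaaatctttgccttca
Cxcl12: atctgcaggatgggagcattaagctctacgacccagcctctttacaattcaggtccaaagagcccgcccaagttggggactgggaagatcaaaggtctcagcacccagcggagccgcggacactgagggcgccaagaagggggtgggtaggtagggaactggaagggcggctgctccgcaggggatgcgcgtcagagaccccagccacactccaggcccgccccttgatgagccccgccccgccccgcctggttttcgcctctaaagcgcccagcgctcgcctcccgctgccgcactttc
The Cxcl10 promoter held the ISRE letters at -213 to -204 from the start, NF-kB letters at -159 to -150, overlapping NF-kB matches at -104 to -95 and -103 to -94, and the AP-1 letters at -74 to -68. Cxcl1 held overlapping NF-kB matches at -71 to -62 and -70 to -61. Cxcl14 held the ISRE letters at -172 to -163 and the GAS letters at -191 to -183. None of the 4 motifs was found in the windows of Ccl8, Cxcl12 and Cx3cl1, which says only that these letters are not there.

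The deposited values are whole numbers that sum to 991287 to 992537 in each library and were read as TPM (transcript abundance normalised for length and library size) rounded down, so levels can be compared between genes per length, ratios of single-digit values are coarse, and sequencing depth is unknown. Between 12454 and 14170 genes had a value of 1 or more per library, and libraries of the same group correlated at r = 0.982 to 0.991 over genes. Differences are given as log2 fold changes of value + 1 with the standard error (SE) from a limma fit over all 28 libraries, a scale that understates the change of low genes. A gene was called when its Benjamini-Hochberg adjusted p was under 0.05 over 13230 genes. Folds are ratios of the group means of the deposited values. In bulk RNA, fewer cells of a type and less RNA per cell cannot be told apart.

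The chemokine genes had their highest levels either during induction or in MEFs. Ccl2, Ccl7, Ccl8, Ccl5, Cxcl10, Cxcl1 and Cxcl5 had their highest level during induction. It fell in DMSO on day 5 for Ccl2, Ccl7, Ccl8, Ccl5 and Cxcl1, in DMSO on day 7 for Cxcl5 and in pre-p38i on day 3 for Cxcl10. Of these genes, Ccl8, Ccl5, Cxcl10, Cxcl1 and Cxcl5 were listed at 0 to 2 in MEFs. In untreated MEFs Ccl2 was 83 and 90 and Ccl7 was 65 and 61. Cxcl12, Cxcl14 and Cx3cl1 had their highest level in MEFs. Ccl2 had the widest range of the inflammatory genes, from 36 to 726 over the 28 libraries with a median of 259.5, and Cxcl12 ranged from 1 to 555. Ccl5 was never above 14, Cxcl10 never above 19, Cxcl5 never above 13 and Cxcl1 never above 25.

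**Figure D1:**
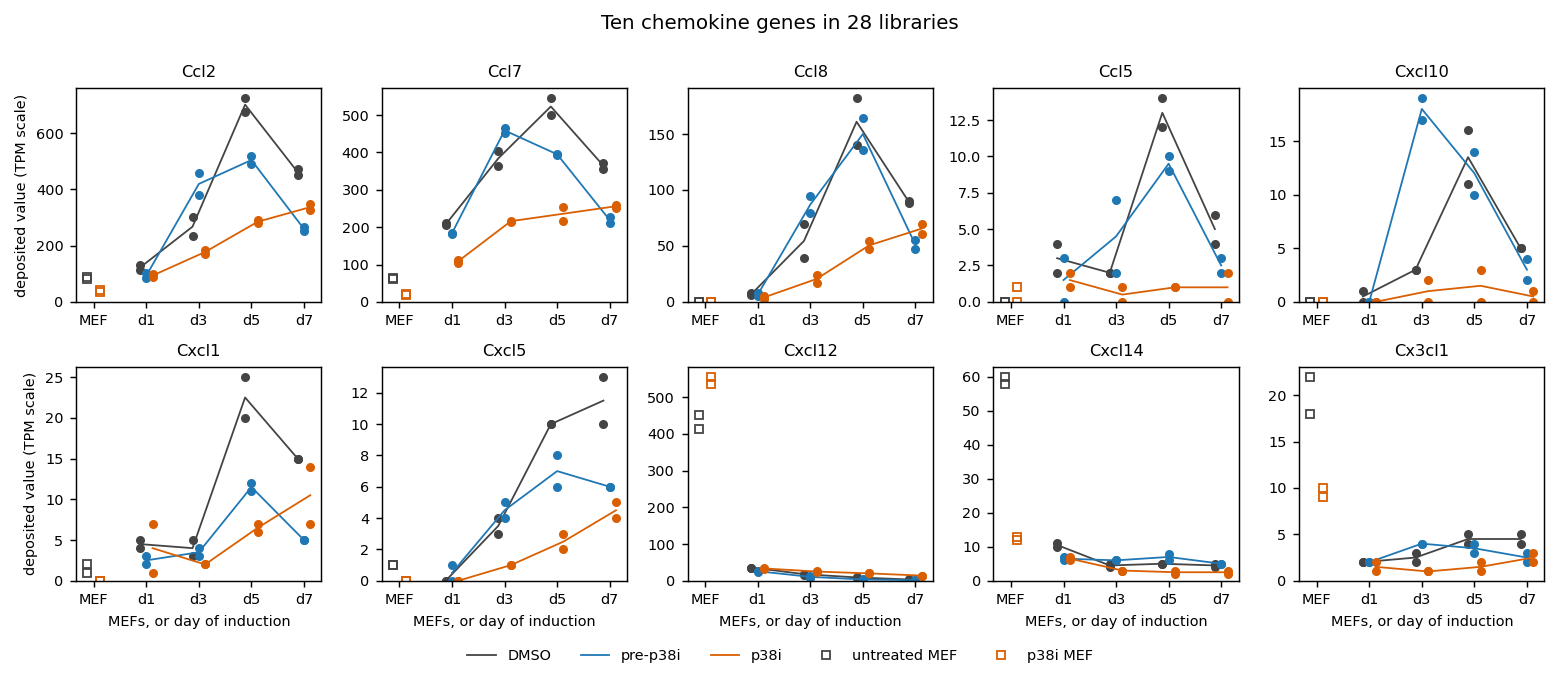
Deposited value (TPM scale, linear axis from 0, a separate scale in each panel) of the 10 chemokine genes in all 28 libraries, against untreated and p38i MEFs (open squares) and the day of induction (points, with lines through the means of 2 libraries). Ccl2 reached 677 and 726 in DMSO on day 5 while p38i stayed at 280 and 290, and Cxcl12 fell from 413 and 451 in untreated MEFs to 36 in both DMSO libraries of day 1.

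Before induction, Cxcl14, Ccl7, Ccl2, Cx3cl1, Cxcl1 and Cxcl5 were lower in MEFs that had received the inhibitor. Cxcl14, a chemokine made constitutively by fibroblasts and epithelia, was 60 and 58 in untreated MEFs and 12 and 13 in p38i MEFs, 4.72-fold lower (log2 -2.15, SE 0.17, limma adjusted p = 2.9e-08). Ccl7, which attracts monocytes through Ccr2, was 65 and 61 against 20 and 18 (log2 -1.68, SE 0.07, limma adjusted p = 3.391e-12). Ccl2, the main ligand of Ccr2, was 83 and 90 against 36 and 42, 2.22-fold lower (log2 -1.13, SE 0.12, limma adjusted p = 9.78e-07). In each of these genes the libraries of both groups lay well apart. Cx3cl1, the membrane-bound chemokine fractalkine, fell from 22 and 18 to 9 and 10 (log2 -1.0, SE 0.24, limma adjusted p = 0.006703). Cxcl1 (2 and 1) and Cxcl5 (1 and 1) were also called lower, with 0 listed in both p38i MEF libraries, so no fold is given. Ccl8 and Cxcl10 were listed at 0 in all 4 MEF libraries, and Ccl5 was listed at 0 in 3 of them and at 1 in a p38i MEF library. Cxcl12 was 413 and 451 in untreated MEFs and 555 and 535 in p38i MEFs, and this 1.26-fold difference was not called (limma adjusted p = 0.3921).

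**Figure D2:**
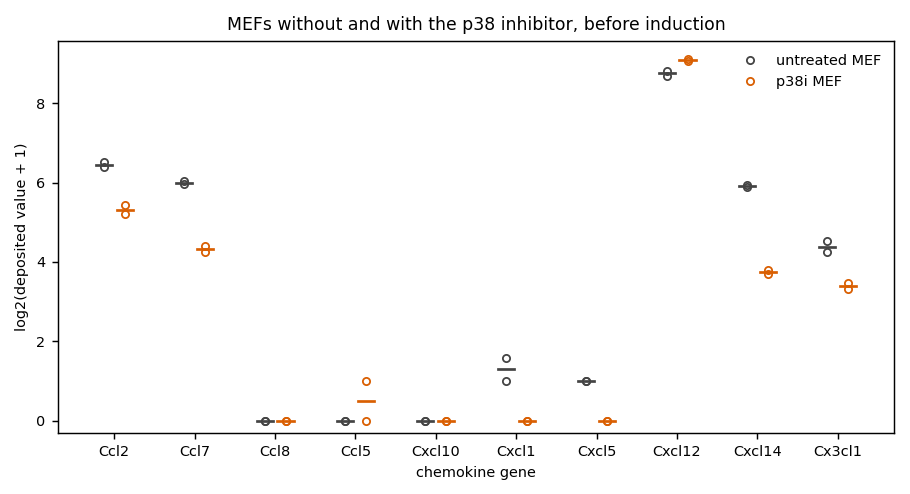
Log2(deposited value + 1) of the 10 genes in untreated MEFs (grey) and p38i MEFs (orange); circles are libraries, 2 per group, and bars are their means. Ccl2, Ccl7, Cxcl14 and Cx3cl1 sat lower with the inhibitor in both libraries, Cxcl12 slightly higher, and Ccl8 and Cxcl10 at 0.

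So 6 of the 10 genes were called in MEFs, all lower, where 17.9% of all tested genes were called, 9.73% higher and 8.15% lower. The median log2 fold change of the 10 genes was -1.0, against 0 over all genes. Without untreated MEF replicate 1, or without p38i MEF replicate 1, the count was 3, since Cxcl1, Cxcl5 and Cx3cl1 were no longer called, and Cxcl1 and Cxcl5 were also lost without p38i MEF replicate 2 and Cxcl5 without untreated MEF replicate 2. The adjusted p of these 3 genes rose to at most 0.2352 over all alternatives. The calls of Ccl2, Ccl7 and Cxcl14 were kept under every alternative.

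Between untreated MEFs and DMSO day 1, genes of the set were called in both directions. These groups differ by the virus, the induction and its vehicle, which cannot be told apart. The stromal genes fell: Cxcl12 from 413 and 451 to 36 in both libraries, 12-fold (log2 -3.55, SE 0.24, limma adjusted p = 1.389e-10), Cx3cl1 from 22 and 18 to 2 in both (log2 -2.80, SE 0.24) and Cxcl14 from 60 and 58 to 11 and 10 (log2 -2.38, SE 0.17). Ccl7 rose 3.29-fold to 205 and 210 (log2 1.70, SE 0.07, limma adjusted p = 4.588e-14), and Ccl2 rose 1.41-fold to 113 and 131 (log2 0.49, SE 0.12), a call that ended when only the groups compared were fitted (limma adjusted p = 0.0565). Ccl8 (6 and 8 in DMSO) and Ccl5 (4 and 2) were called higher from 0 in both untreated MEF libraries, Cxcl1 was called higher at 5 and 4, and Cxcl5 was called lower, from 1 and 1 to 0. In all, 5 genes were called higher and 4 lower, where 55.5% of all tested genes were called. Cxcl10 was not called. The call of Ccl5 ended without DMSO day 1 replicate 1 (limma adjusted p = 0.07806), and that of Cxcl1 without the same library or without untreated MEF replicate 2, with an adjusted p of at most 0.2617 over the alternatives.

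From day 1 to day 7 of DMSO, Ccl2, Ccl7, Ccl8, Cxcl10, Cxcl1 and Cxcl5 rose, and Ccl5 was not called. Ccl8 reached 88 and 90, 12.7-fold its level on day 1 (log2 3.50, SE 0.25, limma adjusted p = 2.939e-10), Ccl2 reached 450 and 473, 3.78-fold (log2 1.91, SE 0.12), and Ccl7 reached 356 and 373, 1.76-fold (log2 0.81, SE 0.07). Cxcl5, a neutrophil chemokine listed at 0 in both libraries of day 1, reached 13 and 10, and Cxcl1, which acts on the same receptor Cxcr2, reached 15 in both libraries (log2 1.55, SE 0.42). Cxcl10 (5 and 5) and Cx3cl1 (5 and 4) were also called higher. Cxcl12 fell a further 10.3-fold to 4 and 3 (log2 -3.05, SE 0.24), and Cxcl14 fell to 4 and 5 (log2 -1.07, SE 0.17). With 7 genes higher and 2 lower, 9 of 10 were called, where 54.6% of all tested genes were. The call of Cx3cl1 ended without DMSO day 7 replicate 1, at an adjusted p of at most 0.1098 over the alternatives.

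The monocyte chemoattractants Ccl2, Ccl7 and Ccl8 stayed at lower levels with the inhibitor present, and in pretreated cells they were above DMSO on day 3 and below it on day 7. On days 1, 3, 5 and 7 of DMSO, Ccl2 was 113 and 131, 234 and 301, 726 and 677, and 450 and 473. With p38i it was 87 and 100, 169 and 186, 280 and 290, and 326 and 348 on the same days, so the p38i libraries lay below both DMSO libraries on every day and were still at their highest on day 7. In pre-p38i it was 102 and 84, 381 and 458, 491 and 518, and 267 and 252, above DMSO on day 3 and below it on the other days. The p38i difference from DMSO was largest on day 5, 2.46-fold (log2 -1.30, SE 0.12, limma adjusted p = 1.229e-07), after log2 -0.38 and -0.58 on days 1 and 3 and before -0.45 on day 7, all called with an SE of 0.12. The pre-p38i difference changed sign, from log2 -0.39 on day 1 to 0.65 on day 3 (1.57-fold higher, limma adjusted p = 0.0005313), -0.47 on day 5 and -0.83 on day 7 (1.78-fold lower, limma adjusted p = 2.1e-05).

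Ccl7 followed the course of its neighbour Ccl2. It was 205 and 210, 365 and 403, 546 and 500, and 356 and 373 on days 1, 3, 5 and 7 of DMSO, and 105 and 113, 215 and 217, 217 and 255, and 252 and 260 with p38i. Pretreated cells held 185 and 183, 466 and 452, 397 and 393, and 212 and 226, with the highest level already on day 3. Ccl7 was 1.90-fold lower with p38i on day 1 (log2 -0.92, SE 0.07, limma adjusted p = 2.286e-08), and it remained lower on day 3 (log2 -0.83), day 5 (log2 -1.15) and day 7 (log2 -0.51), each with an SE of 0.07. In pre-p38i the differences were log2 -0.17 on day 1, which was not called, 0.26 on day 3, -0.40 on day 5 and -0.73 on day 7.

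Ccl8, a chemokine of the same family, was listed at 0 in every MEF library. In DMSO it was 6 and 8, 39 and 70, 182 and 140, and 88 and 90 over the 4 days. With p38i it was 3 and 5, 17 and 24, 47 and 54, and 61 and 70, and in pre-p38i 5 and 8, 79 and 95, 136 and 164, and 47 and 55. The p38i libraries were below both DMSO libraries on every day, and the difference was called on day 3 (2.66-fold, log2 -1.33, SE 0.25) and day 5 (3.19-fold, log2 -1.64, SE 0.25, limma adjusted p = 5.185e-05). Pre-p38i was called higher on day 3 (log2 0.72, SE 0.25, limma adjusted p = 0.04444) and lower on day 7 (log2 -0.80, SE 0.25, limma adjusted p = 0.01912). On day 5 pre-p38i and DMSO overlapped.

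Cxcl10 and Ccl5, which attract activated T cells, were low throughout and stayed near 0 with p38i. Cxcl10 was 1 and 0, 3 and 3, 11 and 16, and 5 and 5 on days 1, 3, 5 and 7 of DMSO, and 0 and 0, 0 and 2, 3 and 0, and 0 and 1 with p38i. In pre-p38i it was 0 and 0, 17 and 19, 14 and 10, and 4 and 2, so that on day 3 both pretreated libraries were above every DMSO library of any day. The day 3 difference of pre-p38i from DMSO was 6-fold (log2 2.25, SE 0.53, limma adjusted p = 0.004891) and was the largest rise of any of the 10 genes against DMSO. With p38i, Cxcl10 was called lower on day 5 (log2 -2.84, SE 0.53, limma adjusted p = 0.0005029) and day 7 (log2 -2.09, SE 0.53, limma adjusted p = 0.004601). The day 7 call ended without p38i day 7 replicate 1, at an adjusted p of at most 0.07368 over the alternatives. With a pseudocount of 0.1 the day 3 call of pre-p38i ended (limma adjusted p = 0.2505).

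Ccl5 was 4 and 2, 2 and 2, 12 and 14, and 4 and 6 in DMSO over the same days. With p38i it was 1 and 2, 0 and 1, 1 and 1, and 2 and 0, and in pre-p38i 3 and 0, 2 and 7, 10 and 9, and 3 and 2. The DMSO and pre-p38i libraries of day 5 stood above all others, and p38i had no such peak. The p38i difference was called on day 5 (log2 -2.80, SE 0.58, limma adjusted p = 0.00135) and day 7 (log2 -1.77, SE 0.58, limma adjusted p = 0.0241). The day 5 call ended with a pseudocount of 0.1 (limma adjusted p = 0.0911). The day 7 call ended without either DMSO day 7 library or without p38i day 7 replicate 2, with an adjusted p of at most 0.3062 over the alternatives. No difference of Ccl5 between pre-p38i and DMSO was called.

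The neutrophil chemokines Cxcl1 and Cxcl5 had their highest values on days 5 and 7. Cxcl1 was 5 and 4, 5 and 3, 25 and 20, and 15 and 15 in DMSO, 1 and 7, 2 and 2, 6 and 7, and 7 and 14 with p38i, and 3 and 2, 3 and 4, 11 and 12, and 5 and 5 in pre-p38i. Cxcl5 was 0 and 0, 3 and 4, 10 and 10, and 13 and 10 in DMSO, 0 and 0, 1 and 1, 3 and 2, and 4 and 5 with p38i, and 1 and 0, 5 and 4, 8 and 6, and 6 and 6 in pre-p38i. Both inhibitor arms ended below DMSO in both libraries of day 7, for both genes. With p38i, Cxcl5 was called lower on day 3 (log2 -1.16), day 5 (log2 -1.67, limma adjusted p = 7.99e-05) and day 7 (log2 -1.18), each with an SE of 0.26, and Cxcl1 was called lower on day 5 (log2 -1.64, SE 0.42, limma adjusted p = 0.006212), a call that ended without DMSO day 5 replicate 1 (limma adjusted p = 0.05249). With pre-p38i, Cxcl1 (log2 -1.42, SE 0.42) and Cxcl5 (log2 -0.83, SE 0.26) were called lower on day 7. The 2 p38i libraries of Cxcl1 differed widely on day 1 and on day 7.

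Cxcl12, the stromal ligand that holds blood progenitors in the bone marrow, was the only gene of the 10 called in opposite directions in the inhibitor arms on days 5 and 7. In DMSO it was 36 and 36, 19 and 17, 8 and 10, and 4 and 3 on days 1, 3, 5 and 7. With p38i it was 36 and 31, 26 and 24, 20 and 20, and 14 and 14, and in pre-p38i 27 and 25, 8 and 13, 5 and 2, and 2 and 1. From day 3 on, every p38i library was above every DMSO library of the day and every pre-p38i library was below. With p38i the difference was log2 -0.10 on day 1 and 0.45 on day 3, neither called, then 1.08 on day 5 (2.22-fold, limma adjusted p = 0.002445) and 1.75 on day 7 (4-fold, limma adjusted p = 1.488e-05), each with an SE of 0.24. With pre-p38i it was log2 -0.46 on day 1, not called, -0.76 on day 3, -1.23 on day 5 and -0.87 on day 7. Directly compared, Cxcl12 was 9.33-fold higher with p38i than with pre-p38i on day 7 (log2 2.61, SE 0.24, limma adjusted p = 2.287e-08), 5.71-fold on day 5 and 2.38-fold on day 3. Every induced p38i library, at 36 or less, was below both untreated MEF libraries.

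The other 2 genes that were highest in MEFs stayed low in all arms. Cxcl14 was 11 and 10, 4 and 5, 5 and 5, and 4 and 5 in DMSO, 6 and 7, 3 and 3, 3 and 2, and 3 and 2 with p38i, and 6 and 7, 6 and 6, 6 and 8, and 5 and 5 in pre-p38i. It was lower with p38i on day 1 (log2 -0.62), day 5 (log2 -0.79) and day 7 (log2 -0.66), each with an SE of 0.17, and lower with pre-p38i only on day 1 among the 4 days (log2 -0.62, limma adjusted p = 0.02333). Cx3cl1 was 2 and 2, 2 and 3, 4 and 5, and 5 and 4 in DMSO, 1 and 2, 1 and 1, 2 and 1, and 3 and 2 with p38i, and 2 and 2, 4 and 4, 4 and 3, and 3 and 2 in pre-p38i. It was called lower with p38i on day 3 (log2 -0.79), day 5 (log2 -1.16) and day 7 (log2 -0.66) and lower with pre-p38i on day 7 (log2 -0.66), each with an SE of 0.24. These differences are of a few units in values rounded down.

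**Figure D3:**
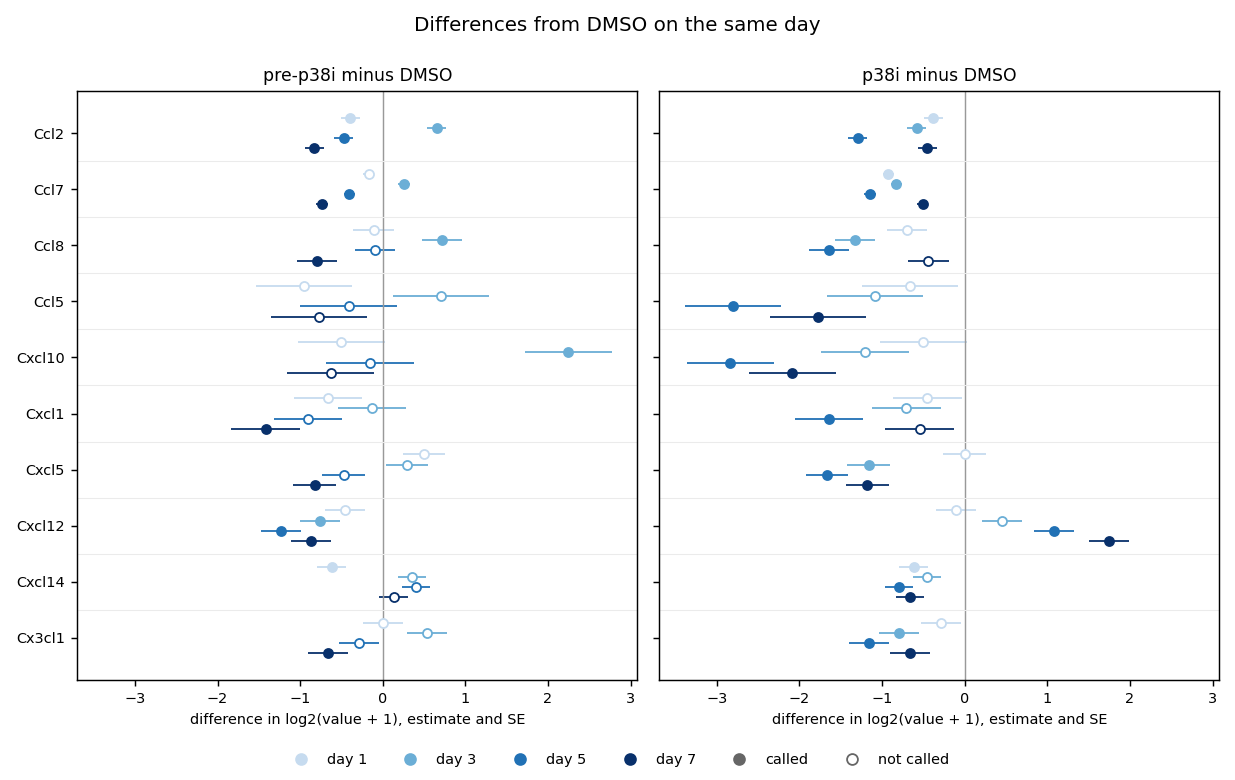
Difference in log2(deposited value + 1) between pre-p38i and DMSO (left) and between p38i and DMSO (right) on days 1, 3, 5 and 7 (light to dark blue), with SE from the limma fit; filled points were called. With p38i all genes but Cxcl12 lay at or below 0, and with pre-p38i Ccl2, Ccl7, Ccl8 and Cxcl10 lay above 0 on day 3 only.

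Counted over the set, 3 genes were called lower with p38i on day 1, where 16.1% of all tested genes were called, 5 lower on day 3 (21.4% of all), 9 lower and Cxcl12 higher on day 5 (26.6% of all) and 7 lower and Cxcl12 higher on day 7 (34.1% of all). The median log2 fold change of the 10 genes on day 5 was -1.47, against -0.08 over all tested genes. On day 1 the count was 1 without p38i day 1 replicate 1 and 5 without p38i day 1 replicate 2, where Ccl8 and Cxcl1 were added, and the calls of Ccl2 and Cxcl14 each ended without a DMSO day 1 library too (replicate 2 for Ccl2, replicate 1 for Cxcl14). On day 3 the call of Cx3cl1 ended without DMSO day 3 replicate 2 or either p38i library, and Cxcl10 was called lower without p38i day 3 replicate 2. On day 7 the count was 5 without DMSO day 7 replicate 2 or p38i day 7 replicate 2, and the calls of Cx3cl1 and Cxcl14 were among those that ended, Cx3cl1 also without DMSO day 7 replicate 1. The calls of Ccl7 were kept under every alternative on all 4 days.

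With pre-p38i, 2 genes were called lower on day 1, where 11.6% of all tested genes were called, 4 higher and Cxcl12 lower on day 3 (20.6% of all), 3 lower on day 5 (25.6% of all) and 7 lower on day 7 (29.9% of all). On day 1 the call of Cxcl14 ended without any of the 4 libraries compared and that of Ccl2 without DMSO day 1 replicate 2 or pre-p38i day 1 replicate 2, so that 0 or 1 genes were called, Cxcl5 being called instead without pre-p38i day 1 replicate 2. On day 3 the count was 2, Ccl2 and Cxcl10, without DMSO day 3 replicate 1 or pre-p38i day 3 replicate 1. The call of Ccl8 on day 3 also ended without pre-p38i day 3 replicate 2, and that of Cxcl12 without DMSO day 3 replicate 2. On day 7 the count was 2 without DMSO day 7 replicate 1, 4 without DMSO day 7 replicate 2, 4 without pre-p38i day 7 replicate 1 and 3 without pre-p38i day 7 replicate 2, and only Ccl2 and Ccl7 were kept each time. The 3 calls of day 5 were kept without any single library.

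Setting the inhibitor arms against each other asks whether inhibition before and during induction left the genes at different levels. On day 1 only Ccl7 differed, 1.69-fold lower with p38i (log2 -0.75, SE 0.07, limma adjusted p = 1.213e-07), where 28.2% of all tested genes were called. On day 3, 8 genes were lower with p38i and Cxcl12 was higher (42.2% of all genes called), led by Cxcl10 at 0 and 2 against 17 and 19 (log2 -3.45, SE 0.53, limma adjusted p = 3.116e-05) and Ccl8 at 17 and 24 against 79 and 95 (log2 -2.05, SE 0.25). On day 5 the count was again 8 lower and Cxcl12 higher (47.5% of all genes called), and Cxcl1 was the gene not called on both days. On day 7, Ccl2 (log2 0.38, SE 0.12), Ccl7 (log2 0.22, SE 0.07) and Cxcl12 were higher with p38i and Cxcl10 (log2 -1.45, SE 0.53) and Cxcl14 (log2 -0.79, SE 0.17) lower, 5 of 10 genes where 54.3% of all were called. So the share of the set was near that of all genes on day 7.

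Single libraries bore on these counts as follows. On day 1 the count was 2 whichever library was left out, with Ccl8, Cxcl1 or Cxcl5 added. On day 3 the call of Ccl5 ended without p38i day 3 replicate 1 or pre-p38i day 3 replicate 2, and on day 5 that of Cx3cl1 ended without p38i day 5 replicate 2 or pre-p38i day 5 replicate 1. On day 7 the count was 3 without p38i day 7 replicate 2 or pre-p38i day 7 replicate 1: the calls of Ccl2 and Ccl7 each ended without p38i day 7 replicate 2, that of Ccl2 also without pre-p38i day 7 replicate 2, and those of Ccl7 and Cxcl10 without pre-p38i day 7 replicate 1. The call of Cxcl10 also ended without p38i day 7 replicate 1, where Ccl5 was called lower and Cxcl1 higher. The median log2 difference of all tested genes was -0.16 on day 3 and -0.12 on day 5, and 0.05 and 0.02 after quantile normalization, which turned no called direction of the 10 genes.

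Whether the difference from DMSO itself changed between day 1 and day 7 was tested for each arm. For p38i, the difference grew for Cxcl12 (day 7 minus day 1, log2 1.85, SE 0.34, limma adjusted p = 0.0006419) and for Cxcl5 in the lower direction (log2 -1.18, SE 0.37), and it shrank for Ccl7 (log2 0.42, SE 0.10, limma adjusted p = 0.005061). For pre-p38i it moved lower for Ccl7 (log2 -0.56, SE 0.10, limma adjusted p = 0.0005006) and Cxcl5 (log2 -1.33, SE 0.37) and upwards for Cxcl14 (log2 0.75, SE 0.24, limma adjusted p = 0.03956). These were 3 of 10 genes in each arm, where 21.6% (p38i) and 16.7% (pre-p38i) of all tested genes were called. The Cxcl5 result of p38i ended without either DMSO day 1 library, DMSO day 7 replicate 1, either p38i day 1 library or p38i day 7 replicate 1, with an adjusted p of at most 0.3573 over the alternatives. For pre-p38i the count was 1 without DMSO day 7 replicate 1 or pre-p38i day 1 replicate 1, and the Cxcl14 result ended without either DMSO day 1 library, DMSO day 7 replicate 1, pre-p38i day 1 replicate 1 or either pre-p38i day 7 library, with an adjusted p of at most 0.1502. The Ccl7 and Cxcl12 results were kept under every alternative.

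The rest of the chemokine system was thinly expressed. Of 27 other chemokine ligands, 11 reached the minimum for testing. None of the 11 was called higher with p38i, and 2, 4, 6 and 4 were called lower on days 1, 3, 5 and 7. Of all tested genes, 12.6%, 16.2%, 18.7% and 17.6% were called lower on these days. Ccl12, a further monocyte chemoattractant, was 21 and 22 in DMSO and 8 and 2 with p38i on day 5 (log2 -2.11, SE 0.43, limma adjusted p = 0.001163), and it was 0 in both pre-p38i libraries of day 7, against 4 and 8 in DMSO. The platelet chemokines Ppbp (18 and 14) and Pf4 (14 and 19) in untreated MEFs were called lower in p38i MEFs, where Ppbp was listed at 0 in both libraries and Pf4 at 1 and 0. Cxcl3, a neutrophil chemokine like Cxcl1, was 5 and 3 in DMSO on day 5 and listed at 0 in both p38i libraries. With pre-p38i, 3, 2, 6 and 6 of the 11 ligands were called lower on days 1, 3, 5 and 7, and 1 each was called higher on days 3 and 5, against 11.6%, 20.6%, 25.6% and 29.9% of all tested genes called. The gene called higher on day 3 was Ccl11, an eosinophil chemokine, with a mean of 4.5 against 1 in DMSO.

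Of 23 chemokine receptors, 6 were tested, of which 1, 2, 2 and 1 were called lower with p38i on days 1, 3, 5 and 7 and 1 higher on day 7, and 2, 1 and 2 higher with pre-p38i on days 3, 5 and 7 and 1 lower on each of these days. These counts are of 6 genes, and 16.1% to 34.1% of all tested genes were called with p38i and 11.6% to 29.9% with pre-p38i on the same days. Most receptors of the ligands described here were listed at 0. Ccr2, Cxcr1 and Cxcr2, the receptors of Ccl2 and Ccl7 and of Cxcl1 and Cxcl5, were listed at 0 in all 28 libraries, and Cxcr3 was never above 1. Cx3cr1, the receptor of Cx3cl1, was 6 and 5 in untreated MEFs and listed at 0 in the 26 other libraries. The receptors of Cxcl12 were singled out here after their values were seen. Cxcr4 was 1 and 2 in untreated MEFs, 8 and 9 in DMSO on day 1 and 46 and 55 on day 7, and it rose at both steps (log2 1.95 and 2.44, SE 0.21 each). Ackr3, a scavenger of Cxcl12, was 28 and 29 in untreated MEFs and 53 and 51 in p38i MEFs (log2 0.85, SE 0.05, limma adjusted p = 7.495e-10), and 114 and 110 in DMSO on day 7. Against DMSO, Ackr3 was called lower with p38i on days 1, 3 and 5 (log2 -0.29, -0.28 and -0.25) and higher on day 7 (log2 0.15). With pre-p38i, Ackr3 was called higher on days 3, 5 and 7 (log2 0.51, 0.44 and 0.32) and Cxcr4 on day 3 (log2 0.77). Apart from the receptors of Cxcl12, Ackr4, a scavenger of other chemokines, was 4 and 4 in DMSO, 8 and 12 in pre-p38i and 0 and 1 with p38i on day 7.

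The interferon signalling list (19 genes, 18 tested) held genes that moved in opposite directions in the inhibitor arms on day 3. On day 3, 8 of 18 genes were called higher and 1 lower with pre-p38i, and 1 higher and 9 lower with p38i, with median log2 fold changes of 0.29 and -0.38 against 0.07 and -0.08 over all tested genes. Of all tested genes, 20.6% were called with pre-p38i and 21.4% with p38i on that day. Irf1, a transcription factor induced by interferons, was 45 and 71 in DMSO, 139 and 163 with pre-p38i (log2 1.40, SE 0.19, limma adjusted p = 4.342e-05) and 11 and 11 with p38i (log2 -2.26, SE 0.19, limma adjusted p = 6.055e-08). Irf7 was 88 and 103, 149 and 153, and 34 and 34 in these groups, and the feedback inhibitor Socs1 was 17 and 19, 32 and 38, and 7 and 6. On day 1 Irf1 was at 7 to 9 in every induced library, and Irf7 was already lower with p38i (2 and 2 against 6 and 7 in DMSO, log2 -1.32, SE 0.16). On day 5, 6 of 18 genes were lower with p38i and none higher, among them Irf1 (log2 -2.40, 14 and 17 against 86 and 86 in DMSO). The summed value of the 19 genes with pre-p38i was 1563 and 1580 on day 3, against 1066 and 1171 in DMSO. On day 5 that sum was 1432 and 1435 with pre-p38i, against 1329 and 1385 in DMSO. By day 7 the counts were 6 higher and 2 lower with p38i and 3 higher and 3 lower with pre-p38i, and they were 2 and 2 with p38i and 1 and 1 with pre-p38i on day 1. In MEFs, 6 were higher and none lower with p38i, where 17.9% of all tested genes were called. The shares of all tested genes were 16.1%, 26.6% and 34.1% with p38i on days 1, 5 and 7. They were 11.6% and 29.9% with pre-p38i on days 1 and 7. The counts of day 1 and of pre-p38i on day 7 lay near these shares. With p38i on day 5, 18.7% of all tested genes were called lower and 7.87% higher.

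Of 19 NF-kB signalling genes, 0, 3, 7 and 0 were called lower with p38i on days 1, 3, 5 and 7 and 1 higher, on day 7, where 16.1%, 21.4%, 26.6% and 34.1% of all tested genes were called in either direction. The counts were 0, 0, 2 and 3 lower and 0, 3, 1 and 0 higher with pre-p38i, below the 11.6%, 20.6%, 25.6% and 29.9% of all tested genes called. On day 5 Nfkbiz, a nuclear cofactor of NF-kB, had a mean of 4 with p38i and 11.5 in DMSO (log2 -1.34, SE 0.25), and the feedback inhibitor Tnfaip3 a mean of 7.5 against 18 (log2 -1.16, SE 0.21). The gene called higher on day 7 was Il1r1, an interleukin receptor, with a mean of 3 against 0.5. Of 8 genes of AU-rich mRNA decay and p38 effectors, 3, 4, 4 and 5 were lower with p38i over the same 4 days and 1 was higher on day 7, to be read against the shares of all genes given above for p38i. With pre-p38i, 2, 2, 3 and 2 were higher and 1 was lower, on day 5, where 11.6%, 20.6%, 25.6% and 29.9% of all genes were called. Zfp36, named here although its change was under log2 1, was 13 and 13 in DMSO and 9 and 9 with p38i on day 3 (log2 -0.49, SE 0.15, limma adjusted p = 0.02504). Its relatives Zfp36l1 (means of 38.5 with p38i and 64.5 in DMSO) and Zfp36l2 (50.5 and 79) were lower by more on that day. Among 3 chemokine-processing proteases, Dpp4, which trims the ends of chemokines such as Cxcl10 and Cxcl12, was 34 and 36 in DMSO on day 7, 55 and 56 with pre-p38i and 16 and 17 with p38i (log2 -1.04, SE 0.19, limma adjusted p = 0.0002743), and was listed at 0 in MEFs and on day 1. The proteases Adam10, Adam17 and Dpp4 together gave 2, 0, 1 and 1 genes lower with p38i and 1 higher on day 7, and 1 higher with pre-p38i on day 7. These are counts of 3 genes, to be read against the shares of all genes given above for each arm.

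Markers of other cell types moved with some of these results. The summed value of 16 macrophage markers was 332 and 348 in untreated MEFs and 225 and 230 in p38i MEFs, and in DMSO it was 275 and 285, 461 and 472, 511 in both libraries, and 272 and 274 over the 4 days. With p38i it was between 196 and 270 on all days, and with pre-p38i 100 and 102, 184 and 197, 113 and 122, and 48 and 60. Lyz2 and Cd68 held a large part of this sum. Their means were 261.5 and 73 of 466.5 in DMSO on day 3, and 124 and 51.5 of 232.5 with p38i on day 7. The defining marker Ptprc was never above 2, Csf1r was 15 and 13 in untreated MEFs and never above 5 elsewhere, and Adgre1 was 11 and 14 in DMSO and 2 and 2 with p38i on day 5. Cd68, another defining marker, went the other way with p38i. It was 58 and 68 against 37 and 32 in DMSO on day 1 and 60 and 67 against 44 and 51 on day 5. On day 7 Cd68 was 54 and 49 with p38i against 36 and 33 in DMSO. Of 14 macrophage markers tested, 8 were lower and none higher in p38i MEFs, where 17.9% of all tested genes were called. With p38i 4, 9, 10 and 7 were lower and 1, 0, 1 and 1 higher on days 1, 3, 5 and 7, where 16.1%, 21.4%, 26.6% and 34.1% of all were called. With pre-p38i 8, 10, 14 and 14 were lower and none higher (11.6%, 20.6%, 25.6% and 29.9% of all). The part of the macrophage markers in the lower chemokine levels was not tested. On day 3 of pre-p38i, Ccl2, Ccl7, Ccl8 and Cxcl10 were higher than in DMSO while 10 of the 14 markers were lower, Lyz2 at 83 and 75 against 248 and 275.

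**Figure D4:**
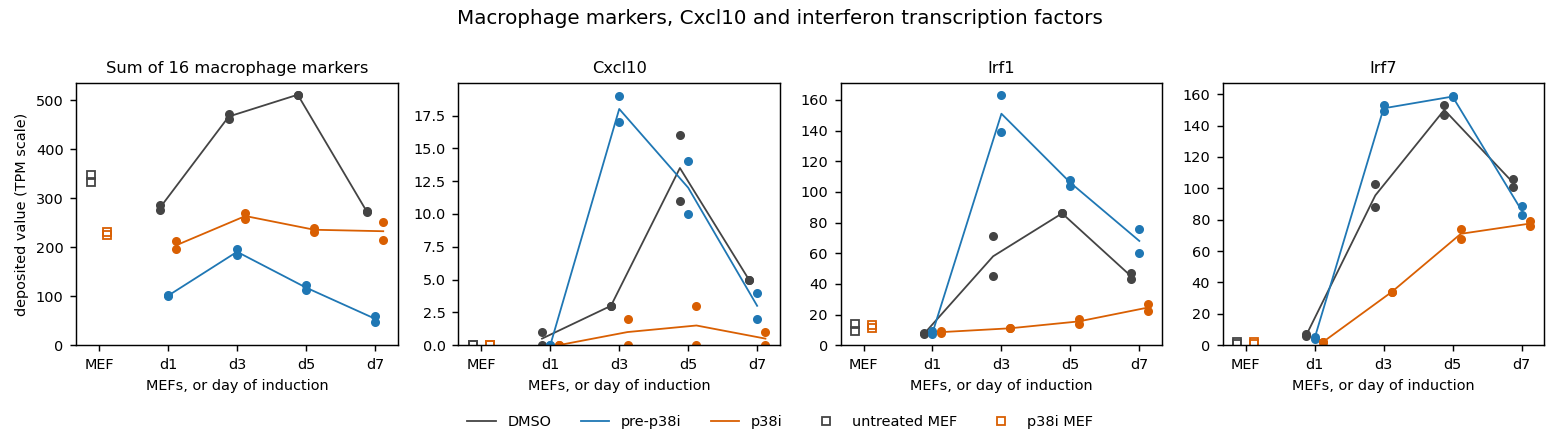
Deposited value (TPM scale, linear axes from 0) of the sum of 16 macrophage markers, Cxcl10, Irf1 and Irf7 in every library, by day of induction and arm; points are libraries, lines join the means of 2, and open squares are MEFs. On day 3 of pre-p38i the macrophage sum was 184 and 197 against 461 and 472 in DMSO, while Cxcl10 was 17 and 19 against 3 and 3.

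Fibroblast markers were abundant in the starting cells as a sum, and 7 of 10 were called lower and 3 higher in DMSO on day 1 than in untreated MEFs, where 55.5% of all tested genes were called. Col1a1 was 4164 and 3867 in untreated MEFs, 2200 and 2221 in p38i MEFs and 290 and 319 in DMSO on day 7, and Pdgfrb was 121 in both untreated MEF libraries, 64 and 66 in p38i MEFs and 6 and 7 in DMSO on day 7. Dcn, Lum and Col3a1 went the other way. From untreated MEFs to DMSO day 1, Dcn rose from 7 and 7 to 177 and 182 and Lum from 0 and 0 to 19 and 21. Col3a1 went from 247 and 284 to 341 and 320. On day 7 of DMSO these 3 were 104 and 102, 39 and 46, and 292 and 313. Against DMSO, all 10 markers were lower with pre-p38i on day 7, where 29.9% of all tested genes were called. With p38i none was lower and 3 were higher on day 7, where 17.6% of all tested genes were called lower and 16.5% higher. Cxcl12 differed in opposite directions in these arms, and the part of fibroblast content in its differences was not tested. On days 1, 3 and 5, 7, 8 and 6 of the 10 markers were lower and 0, 1 and 2 higher with p38i, where 16.1%, 21.4% and 26.6% of all tested genes were called. With pre-p38i 5, 7 and 9 were lower and 1, 0 and 0 higher (11.6%, 20.6% and 25.6% of all), and in p38i MEFs 5 were lower and none higher (17.9% of all). Among markers of other cells, Cd3d, Cd3e, Nkg7, Klrb1c, Gzma and Gzmb were listed at 0 in all 28 libraries, and the T cell genes Cd3g and Cd2 alone gave the summed 61 and 70 of DMSO on day 7. Of the 5 endothelial markers, Emcn was listed at 0 throughout. The sum was 2 in untreated MEFs and 61 in DMSO on day 7, which was nearly all Tek (57 and 58), while Kdr was lower on day 7 than on day 1 of DMSO (means of 1.5 and 6). The sum of 5 epithelial markers was 5 and 9 in untreated MEFs, and 434 and 453 in DMSO, 843 and 881 with pre-p38i and 197 and 214 with p38i on day 7.

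The 14 groups were also ordered by the level of each gene. For Ccl2, Ccl7 and Cxcl12, 8 of the 13 neighbouring pairs of groups in the order did not overlap. The number was 5 for Ccl8 and Cxcl14, 4 for Cxcl1, 3 for Cxcl5 and Cxcl10, and 2 for Ccl5 and Cx3cl1. Such pairs were counted for the genes of this set alone, so there is no share of all genes to read these numbers against. They describe the order only. Ccl2 had the order DMSO day 5, pre-p38i day 5, then DMSO day 7 and pre-p38i day 3, which overlapped, and p38i day 7. Cxcl12 had the order p38i MEFs, untreated MEFs, then DMSO and p38i on day 1, which overlapped, and ended with pre-p38i on day 7.

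Over the 14 group means of log2 values, Ccl2 correlated with Ccl8 at r = 0.96, with Cxcl5 at 0.91 and with Ccl7 at 0.90, and Cxcl14 with Cx3cl1 at 0.81. Among the 10668 genes whose mean reached 5, the closest course to Ccl2 was that of Gm12840 (r = 0.97) and Mppe1 (r = 0.97), to Ccl7 that of Tmem45a and Slc39a14 (r = 0.98 each) and to Ccl8 that of Wdtc1 and Mppe1 (r = 0.99 each). For Cxcl1 they were Hk2 (r = 0.95) and Gm26809 (r = 0.94), for Cxcl12 Mkl1 and Farp1 (r = 0.99 each) and for Cxcl14 Abcc1 (r = 0.95) and Smim15 (r = 0.94). The other 4 genes had a mean under 5 and were not matched. These correlations describe 14 points that come from the same 28 libraries.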

How the data were processed

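Poly(A)-selected RNA was sequenced from 28 libraries of mouse cells in 14 groups of 2. The submitters' processing notes name bcl2fastq, Bowtie2 2.2.5, RSEM 1.3.0 and the builds mm10 and hg38 without giving their roles. For the kit used to make libraries, for how RNA was extracted and for what MEFs were grown in, the labels and the methods of the study do not give the same. The deposited table holds a score per gene and library, whole numbers that sum to 991287 to 992537 per library and were read as TPM that the authors rounded down. The table keeps no counts, so depth is unknown and no counting interval is given. Gene positions are those of the deposited table, and 9 of the 10 matched GENCODE M21.

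Values were tested as log2(value + 1), after keeping the 13230 of 50600 genes with a mean of at least 1, by limma 3.58.1 in R 4.3.3 (a single linear model over all 28 libraries with 14 group means, empirical Bayes with a mean-variance trend), with Benjamini-Hochberg adjustment within each of 17 comparisons and calls at an adjusted p under 0.05. The fit was tested on simulated data. Alternatives were no filter on low values, a filter at a mean of 5, adding 0.1 in place of 1, quantile normalization, a replicate block within time points, a fit of only the groups compared and leaving out each library. Same-numbered libraries did not deviate together (correlations of deviations -0.0838 to 0.0874), so the numbers were not taken to pair the samples.

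The 10 genes and all gene lists were chosen with earlier results of these data known. From the lists of other ligands, receptors, interferon and NF-kB signalling, AU-rich mRNA decay and proteases, genes called against the control could be named where their log2 fold change reached 1 in either direction, at most 4 per list and comparison. Some genes, among them Zfp36 and its relatives and the receptors of Cxcl12, were named outside this rule. For members with a mean of at least 5, the 2 genes of highest Pearson r over the 14 group means were named. Marker lists (macrophage, fibroblast, T and NK, endothelial, epithelial) are given as sums and counts. BLAST 2.17.0 compared transcripts.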

Additional observations from a re-analysis of the deposited data

Results flagged for a closer look

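In 6 cases the test of the change itself, in the limma fit, called an unequal difference from DMSO on days 1 and 7. With p38i, the difference of day 7 minus that of day 1 was 1.85 on the log2 scale for Cxcl12, -1.18 for Cxcl5 and 0.42 for Ccl7. With pre-p38i it was -0.56 for Ccl7, -1.33 for Cxcl5 and 0.75 for Cxcl14. Ccl7 thus moved in opposite directions in the 2 arms, which share their DMSO libraries. The Cxcl5 and Cxcl14 results rest on values of 0 to 13 and each ended without some single libraries.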

How the results depend on the processing

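Of 97 called differences of the 10 genes, 44 were kept under every alternative, 53 were lost under at least 1, and 0 changed sign. Fitting only the groups compared left 0, 1, 1 and 4 genes called for pre-p38i on days 1, 3, 5 and 7 (2, 5, 3 and 7 as reported), 1, 1, 6 and 3 for p38i (3, 5, 10 and 8), 3 for p38i against pre-p38i on day 7 (5) and 1 for the change of the pre-p38i difference (3). Calls over all 13230 tested genes fell as well. For pre-p38i they were 359, 753, 1254 and 2285 (1539, 2729, 3387 and 3952 as reported). For p38i they were 853, 1044, 978 and 2749 (2128, 2833, 3514 and 4509). A minimum mean of 5, which leaves Ccl5, Cxcl5, Cxcl10 and Cx3cl1 untested, gave 3, 6 and 4 for p38i on days 3, 5 and 7 and 5 for p38i against pre-p38i on days 3 and 5. A pseudocount of 0.1 gave 2 for pre-p38i on day 3, 5 for p38i on day 7 and 1 for the change of the pre-p38i difference. Without a filter, 1 was called for pre-p38i on day 1 and 3 on day 3, and quantile normalization gave 1 for p38i on day 1. The replicate block, which shares only a number between libraries, gave 1 for pre-p38i on day 1 (2 as reported) and 2 for p38i against pre-p38i on day 1 (1 as reported), and counts within 1.5 times of those reported elsewhere. The same-numbered libraries of a time point correlated at -0.0159 to 0.0513.

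Leaving out single libraries, where the lone library is assumed to vary like the other groups, gave 3 to 5 calls for MEFs, 0 to 1 for pre-p38i on day 1, 2 to 4 on day 3 and 2 to 4 on day 7, 1 to 5 for p38i on day 1 and 5 to 7 on day 7, 2 for p38i against pre-p38i on day 1 and 3 to 6 on day 7, and 1 to 4 for the change of the pre-p38i difference. Beyond the fewer genes or libraries that an alternative leaves, the cause of these changes was not tested. Depth is unknown, and single-digit values are limited by their rounding.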
